A study of Physalis pubescens with 5 samples.

Results

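The vicilin-like storage globulin transcripts of Physalis floridana P106 were represented by 2 members, Unigene53698_P106 and Unigene54910_P106, of 133571 unigenes counted in any library. Unigenes are transcripts put together from reads without a genome. Both carried the description "vicilin-like antimicrobial peptides 2-2-like" of a tomato protein, and both were listed for this description with their levels in these libraries already known. RNA came from young fruits, collected after fertilization, and from floral buds, collected before it, of glass-house P106 plants under long days (16 h light). The organism field of the labels reads Physalis pubescens. Each organ had 2 libraries, numbered as replicates in their titles and called fruits 1 and 2 and buds 1 and 2 here, and a mixed bud and fruit library used for assembly was not analysed here. A protocol text shared by all samples mentions 5-day-old fruits. Whether the 2 libraries of an organ came from separate plants is not stated, so p-values measure a spread that may be technical.

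Vicilins are seed storage globulins of the cupin superfamily, built up in protein storage vacuoles of the embryo or endosperm and broken down at germination. The name vicilin-like antimicrobial peptide comes from macadamia, where peptides cut from the front part of a vicilin-like precursor act against fungi. Legumin-type globulins, albumins, oil body proteins and late embryogenesis abundant proteins are other products of maturing seeds, and vacuolar sorting receptors and vacuolar processing enzymes deliver and cut storage globulins in seeds.

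Library totals were 9.0e+06 and 8.2e+06 counts in fruits 1 and 2, and 8.6e+06 and 8.4e+06 counts in buds 1 and 2. One count was worth 0.111 to 0.121 CPM, a count scaled to the library total, and a floor of 3 counts 0.333 to 0.364 CPM. The fruit libraries stood apart from each other: across 59858 unigenes, none of them an independent replicate, log2 CPM of the fruits correlated with r = 0.645 and that of the buds with r = 0.891. Between fruit 2 and bud 2, r was 0.94, so this fruit library resembled a bud library more than the other fruit. Fruit 1 was also closer to the buds, at r = 0.768 and 0.672, than to fruit 2. Whether fruit 2 was mixed or carried a wrong label cannot be told from the files, and every level and fold that rests on it carries this doubt. Every level is therefore given for each library. A transcript for DEFICIENS (Unigene129228_P106), a petal and stamen identity factor, was at 66.1 and 96.5 CPM in fruits 1 and 2 and at 109.8 and 112.6 CPM in the buds, so this floral marker was present in both organs.

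The files described the members differently. In the files of replicates 1, Unigene53698_P106 was matched to a castor bean protein described as a putative nutrient reservoir (BLAST E-value 4.46e-54), and Unigene54910_P106 to a putative vicilin of Solanum demissum (3.6e-38). In the files of replicates 2 both were matched to 1 and the same tomato protein, with E-values of 1.49e-88 and 9.89e-46. The members were 892 and 277 bases long. Neither carried a term in any of the deposited ontology or pathway columns. Because they hit 1 protein, they may be parts of 1 transcript or separate copies; their sequences were not used here, so this was not tested, and they are not independent of each other.

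Unigene53698_P106 had few reads in fruit 1 and was among the most abundant transcripts in the buds. It had 37 and 1691 counts in fruits 1 and 2, against 26337 and 24044 counts in buds 1 and 2. As CPM this was 4.11 and 205.2 in the fruits and 3046 and 2871 in the buds. Both fruits lay below both buds, and the fruits were far apart: fruit 2 stood 49.9-fold above fruit 1 (exact 95% counting interval 36.1 to 71.2). The buds differed little, with bud 2 at 0.942 of bud 1 (0.926 to 0.959). Intervals and floors here cover counting error only, since reads without molecular identifiers are not independent molecules.

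Unigene54910_P106, the shorter member, had 10 and 487 counts in fruits 1 and 2, against 6849 and 8917 counts in buds 1 and 2. That was 1.11 and 59.1 CPM in the fruits and 792.2 and 1065 CPM in the buds. Its fruits were also below its buds without overlap, and fruit 2 was 53.2-fold above fruit 1 (28.7 to 112). Unlike the longer member it was higher in bud 2 than in bud 1, by 1.34-fold (1.3 to 1.39). Over all 59858 tested unigenes, 13.6% had both fruits below both buds and 8.49% had both above; since the members were chosen on this contrast, nothing is read from theirs.

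**Figure D1:**
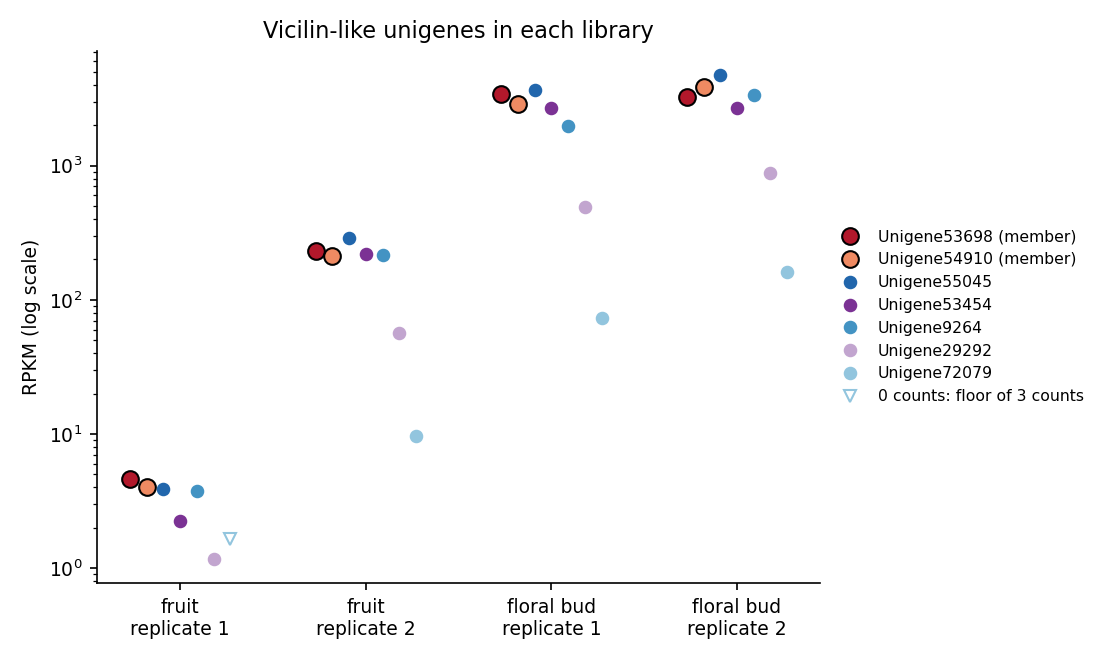
RPKM (CPM per kilobase of unigene, log axis) of the 2 members, outlined in black, and 5 related unigenes in each of the 4 libraries; 1 point per unigene and library, and an open triangle stands for 0 counts, drawn at the floor of 3 counts. Both members sit at 4.01 to 4.61 RPKM in fruit replicate 1, at 213 to 230 RPKM in fruit replicate 2 and at 2860 to 3844 RPKM in the buds.

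Set against the bud library of the same replicate number, Unigene53698_P106 was 741-fold lower in fruit 1 (538 to 1053) and 14.0-fold lower in fruit 2 (13.3 to 14.7). For Unigene54910_P106 the same folds were 713 (388 to 1488) and 18 (16.4 to 19.8). On the log2 scale with a prior count of 2 and TMM scaling, the changes of fruit over bud were -9.49 and -3.73 for the longer member and -9.23 and -4.09 for the shorter. Of the 59858 tested unigenes, 2 were as low or lower within both replicate numbers as Unigene53698_P106, itself included, and 1, itself, as Unigene54910_P106. The members were listed with these values known, so nothing is read from this order. At least 4-fold lower in fruit within both numbers were 395 unigenes, or 0.66%, and at least 4-fold higher 23, or 0.0384%; both members were among the 395, as their choice made likely. Both fruits lay below the buds, and the size of the difference turned on which fruit was taken.

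**Figure D2:**
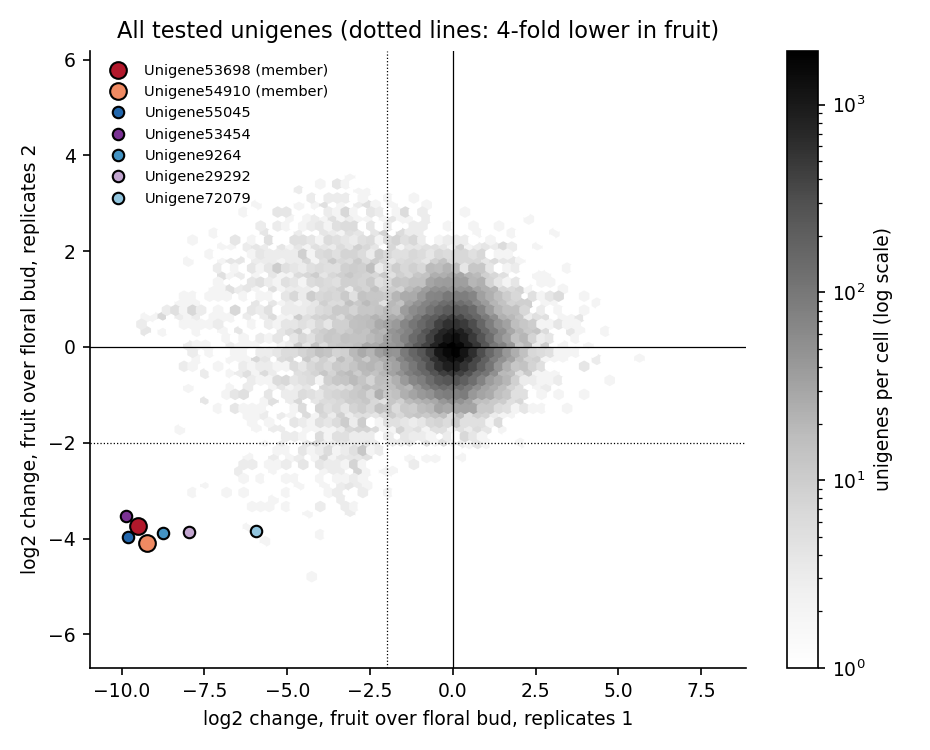
Log2 change of fruit over floral bud within replicates 1 (x axis) and within replicates 2 (y axis) for all 59858 tested unigenes, as the number per cell in grey (log scale), with the members and 5 related unigenes as coloured points. The members lie at -9.49 and -3.73 and at -9.23 and -4.09, beyond the dotted lines that mark a 4-fold lower level in fruit.

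The edgeR fit over all 4 libraries gave log2 fold changes of fruit over bud of -4.70 for Unigene53698_P106 and -4.84 for Unigene54910_P106, as descriptions with no test. Without fruit 1 they were -3.73 and -3.86, and without fruit 2 they were -9.59 and -9.80. In bulk RNA, fewer cells of a type and less RNA per cell cannot be told apart. The quasi-likelihood test of edgeR, at a Benjamini-Hochberg adjusted p under 0.05, called none of the unigenes tested: 0 higher (0.0%) and 0 lower (0.0%). At an unadjusted p under 0.05, 305 were higher and 666 lower, and DESeq2 called 30 higher (0.0491% of 61061) and 128 lower (0.21%).

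Levels of different unigenes can be compared only per length. Unigene53698_P106 was at 4.61 and 230.1 RPKM in fruits 1 and 2 and at 3415 and 3218 RPKM in the buds. Unigene54910_P106 was at 4.01 and 213 RPKM in the fruits and at 2860 and 3844 RPKM in the buds. The shorter member was thus at 0.87 and 0.927 of the longer in the fruits, and at 0.837 and 1.19 of it in buds 1 and 2. The order of the members turned between the buds, and their ratio in each fruit lay between the ratios of the buds.

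By rank of RPKM, Unigene53698_P106 was in the middle of the order in fruit 1 and near its top in the buds: it was number 48661 of 115652 listed unigenes in fruit 1 and number 724 of 104421 in fruit 2. It was number 3 of 119786 in bud 1 and number 11 of 103959 in bud 2. The shorter member ranked 51591 and 812 in fruits 1 and 2, and 5 and 7 in the buds. Both members together took 0.000522% of all counts in fruit 1 (exact 95% interval 0.000384 to 0.000694) and 0.0264% in fruit 2 (0.0253 to 0.0276). In the buds they took 0.384% (0.38 to 0.388) and 0.394% (0.389 to 0.398), so their joint share moved less between the buds than the level of the shorter member did. Unigene53698_P106 held 78.7% of the counts of both in fruit 1 (64.3 to 89.3), 77.6% in fruit 2 (75.8 to 79.4), 79.4% in bud 1 (78.9 to 79.8) and 73.0% in bud 2 (72.5 to 73.4). The share in bud 2 lay below the intervals of fruit 2 and bud 1, but within that of fruit 1.

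The deposited coverage is the percentage of a unigene's length reached by reads. It depends on the count, so it is not independent of the levels known when the members were listed. Reads reached 87.3% of Unigene53698_P106 in fruit 1 and 94.2% in fruit 2, against 96.4% in each bud. In both buds, with 26337 and 24044 counts, 32 of its 892 bases were not reached. For Unigene54910_P106 coverage was 72.9% and 99.3% in fruits 1 and 2 and 99.3% and 99.6% in the buds. The few reads of fruit 1 were thus spread over most of the length of both members and did not pile up on 1 stretch. Among unigenes with at least 100 counts, the median coverage was 96.2% and 95.8% in fruits 1 and 2, and 95.98% and 95.8% in the buds, and for unigenes with 20 to 60 counts in fruit 1 it was 85.5%.

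The members were 2 of 4 unigenes that carried their description. Unigene29292_P106, 284 bases long, hit the same tomato protein as the members, and Unigene53454_P106, 346 bases long, another entry of the same name. Unigene53454_P106 stood at 0.778 and 75.7 CPM in fruits 1 and 2 and at 926 and 924 CPM in the buds. Unigene29292_P106 stood at 0.333 CPM, or 3 counts, and 16.1 CPM in the fruits and at 140 and 248 CPM in the buds. Neither had a description in the files of replicates 1. All 4 unigenes were lower in both fruits than in both buds, against 13.6% of all tested unigenes. The members among them were chosen on this contrast, and 3 of the 4 hit 1 protein. They are thus not 4 independent observations, and nothing is read from the count.

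A further 3 unigenes were matched to a single uncharacterized tomato protein, LOC101256300, and were looked at after their values were seen. The longest of them, Unigene55045_P106 with 913 bases, was described as a putative vicilin in the files of replicates 1 (E-value 3.39e-81), by the hit that Unigene54910_P106 had there. It had 32 and 2157 counts in fruits 1 and 2, against 28644 and 36214 counts in the buds, where no unigene had more in either library. Unigene9264_P106 had 1.0 and 57.2 CPM in the fruits and 526.6 and 895.5 CPM in the buds. Unigene72079_P106 had 0 and 16 counts in the fruits and 126 and 271 counts in the buds. A name search in the files of replicates 2 alone would thus have missed the most abundant vicilin-described transcript of the buds.

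Within replicates 1 the 6 of these 7 unigenes with counts in fruit 1 were 420-fold to 1191-fold lower in fruit. The lowest of these, for the 3 counts of Unigene29292_P106, had an interval of 143 to 2039, and Unigene72079_P106 was at least 43.7-fold lower, with the floor of 3 counts in that library. Within replicates 2 all 7 were 12.2-fold to 18-fold lower in fruit. In the edgeR quasi-likelihood fit the 4 related unigenes with counts in every library had log2 fold changes from -4.73 for Unigene55045_P106 to -4.46 for Unigene29292_P106, each with a Benjamini-Hochberg adjusted p of 1. Together the 7 took 0.00109% of all counts in fruit 1 (0.000884 to 0.00133), 0.0677% in fruit 2 (0.0659 to 0.0695), 0.876% in bud 1 (0.87 to 0.882) and 1.04% in bud 2 (1.03 to 1.04). The members held 48.0%, 39.0%, 43.8% and 38.0% of the counts of the 7 in fruits 1 and 2 and buds 1 and 2. The part of the set that the members held thus varied from 38.0% to 48.0%, while the level of the set itself differed far more between libraries.

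**Figure D3:**
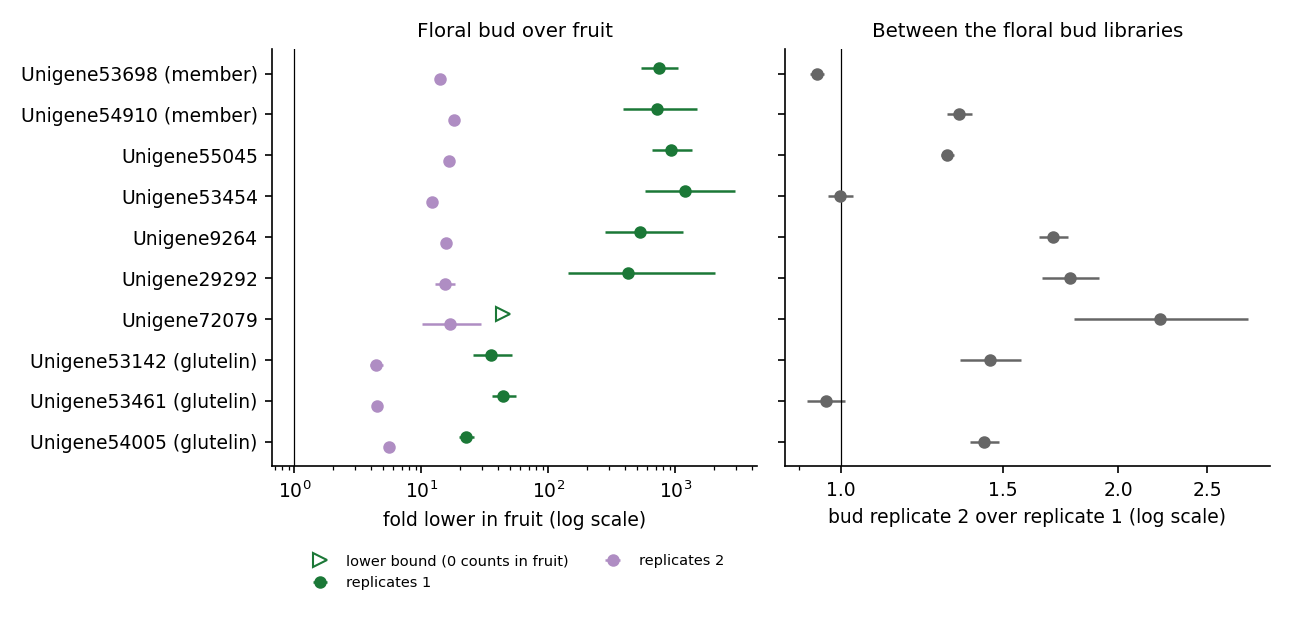
Left, fold by which each unigene was lower in fruit than in the floral bud library of the same replicate number (log axis), for replicates 1 in green and replicates 2 in purple; right, floral bud replicate 2 over replicate 1 (log axis). Points are CPM ratios, bars their exact 95% counting intervals, and the open triangle a lower bound for 0 counts; the vicilin-like unigenes lie at 12.2 to 18 in replicates 2 and the glutelin-like ones at 4.42 to 5.51.

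The ratio between the buds varied over this set. Bud 2 over bud 1 was 0.998 for Unigene53454_P106 (0.967 to 1.03) and 1.31 for Unigene55045_P106 (1.28 to 1.33). It was 1.7 for Unigene9264_P106 (1.64 to 1.76), 1.77 for Unigene29292_P106 (1.65 to 1.91) and 2.22 for Unigene72079_P106 (1.79 to 2.77). These intervals cover counting error only, and with 1 library on each side of the ratio the differences between unigenes have no replicate check. The authors counted only uniquely mapped reads, so near-identical unigenes could have lost or shared reads, and their separate levels are uncertain.

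Another 3 unigenes were described as vicilin of tomato in both sets of files, and hardly any reads fell on them. Unigene55895_P106 had 1 and 5 counts in fruits 1 and 2 and 3 and 3 in the buds, and Unigene34570_P106 had 0 and 3 in the fruits and 2 and 2 in the buds. Unigene83833_P106 had at most 1 count in any library. No difference between the organs was detectable for them at this depth.

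The other members of the vicilin list were 13 unigenes named basic 7S globulin, which belong to another protein family, relatives of aspartic proteases and xyloglucanase inhibitors. The 6 of them with a mean of at least 1 CPM were all highest in fruit 1. Unigene96071_P106 was at 45.7 and 2.91 CPM in fruits 1 and 2 and at 1.85 and 1.43 CPM in the buds. Unigene78281_P106 had 40.4 and 5.46 CPM in the fruits and 19.3 and 11.8 CPM in the buds. Unigene96126_P106, left out by the filter on low counts, had 28.5 and 0.85 CPM in the fruits and 0.81 and 0.955 CPM in the buds. Unigene79841_P106, Unigene78760_P106 and Unigene59152_P106 were at 2.78 to 7.66 CPM in fruit 1 and at 2.63 CPM or less in each other library. The word globulin thus joined transcripts with opposite levels in fruit 1.

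Of the 20 unigenes of this list, 8 passed the filter, and edgeR called 0 of them in either direction (1 higher and 0 lower at an unadjusted p under 0.05). DESeq2 called 0 too. Both fruits lay below both buds in 4 of the 8, against 13.6% of all tested unigenes, and all 4 were vicilin-like ones, including the members. The median log2 fold change of the 8 was -2.29, against 0.01 over all tested unigenes, and that of the 10 tested by DESeq2 was 0.19, of the other sign. Since the members are among the 8, nothing is read from these counts about them. Without fruit 1 edgeR called 0 higher and 4 lower of 8, against 1.44% higher and 0.466% lower over all unigenes tested. With fruit 2 left out the calls were 3 higher and 4 lower of 12, against 2.29% and 6.14%, and the median was 1.42. In both fits the lone fruit library is assumed to vary like the buds.

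Legumin-type globulins fell into 2 kinds of pattern. All but the most abundant unigene named here (Unigene54005_P106) were chosen after their values were seen. Glutelin type-A-like transcripts, relatives of the main storage globulins of rice grains, were lower in both fruits than in both buds. Unigene54005_P106 was at 25.4 and 149 CPM in fruits 1 and 2 and at 575 and 822 CPM in the buds, and Unigene53461_P106 at 9.33 and 88.8 CPM in the fruits and 413 and 398 CPM in the buds. Unigene53142_P106 had 3.78 and 44.1 CPM in the fruits and 134 and 195 CPM in the buds. Within replicates 2 these 3 were 4.42-fold to 5.51-fold lower in fruit, a smaller fold than that of any vicilin-like unigene; the folds were compared as values, and the difference was not tested. Instead, 2 others were highest in fruit 1. A 13S globulin seed storage protein 2-like transcript (Unigene10389_P106) had 94.5 and 13.6 CPM in the fruits and 17.1 and 11.3 CPM in the buds. A cruciferin-like transcript (Unigene118493_P106) had 57.1 and 5.46 CPM in the fruits and 8.1 and 3.82 CPM in the buds. The list had 6 tested of 9 members and a median log2 fold change of -1.53. Both fruits lay below both buds in 3 of the 6, against 13.6% of all tested unigenes. EdgeR called 0 of the 6 (1 lower at an unadjusted p under 0.05) and DESeq2 0; leaving out fruit 1 gave 2 lower calls among 7, against 0.466% of all unigenes tested. Leaving out fruit 2 gave 2 higher and 3 lower among 6, against 2.29% and 6.14%.

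The remaining seed-protein lists showed smaller or mixed differences, and edgeR and DESeq2 called 0 members of each. Of 13 oil body unigenes, 7 were tested and had a median log2 fold change of -0.46. The most abundant, a peroxygenase-like transcript (Unigene110834_P106), had 29.0 and 56.7 CPM in the fruits and 45.1 and 52.5 CPM in the buds. An oleosin (Unigene69271_P106, chosen after its values were seen), a coat protein of seed oil bodies, was at 0.667 and 14.4 CPM in fruits 1 and 2 and at 53.6 and 100 CPM in the buds. It was the only tested oil body unigene that was at least 4-fold lower in fruit within both replicate numbers, against 0.66% of all tested unigenes.

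The late embryogenesis and desiccation list, whose pattern also took in phloem protein and dem protein descriptions, had 31 tested of 50 members. Its median log2 fold change was -0.09, with a median of -1.61 within replicates 1 and 0.07 within replicates 2. Its most abundant member, a dehydrin-like transcript (Unigene8409_P106) of a family that protects cells from water loss, had 533 and 913 CPM in the fruits and 766 and 818 CPM in the buds. Other members were nearly absent from fruit 1 alone. An 18 kDa seed maturation protein-like transcript (Unigene28735_P106, chosen after its values were seen) had 0.444 and 213 CPM in fruits 1 and 2. In buds 1 and 2 it had 158 and 255 CPM. Of the 31, 8 had both fruits below both buds and 1 had both above, against 13.6% and 8.49% of all tested unigenes. At least 4-fold lower within both replicate numbers were 2, against 0.66%. Without fruit 2 the median log2 fold change of the 35 unigenes tested was -1.41. Without fruit 1 the median of the 33 tested was 0.08. The single 2S albumin unigene (Unigene104228_P106) stood at or below 0.463 CPM in every library. Germin-like cupins, wall proteins with the same fold as vicilins, had 12 tested of 23 members and a median of 0.3. Their most abundant member (Unigene27742_P106) was at 192 and 0.121 CPM in fruits 1 and 2 and at 12.7 and 9.67 CPM in the buds.

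Transcripts for the handling of storage globulins showed no common direction. The 17 tested of 29 sorting receptors and processing enzymes had a median log2 fold change of -0.11 (1 higher and 0 lower at an unadjusted p under 0.05). Both fruits lay below both buds in 2 of them and above both buds in 3. Over all tested unigenes these shares were 13.6% and 8.49%, so nothing is read from the 2 counts. A vacuolar sorting receptor PV72-like transcript (Unigene2651_P106), whose pumpkin relative carries storage proteins to the vacuole, had 127 and 69.4 CPM in the fruits and 135 and 75.6 CPM in the buds. It differed more between replicate numbers than between organs. The 3 unigenes above both buds in both fruits were all processing enzymes, named next after their values were seen. Unigene53755_P106 had 40.7 and 34.5 CPM in the fruits and 23.2 and 23.2 CPM in the buds. For Unigene6878_P106 the margin was small, with 67.4 CPM in fruit 1 against 67.2 CPM in bud 2. Unigene5404_P106, described as vacuolar processing enzyme-1a, had 77.6 and 95.5 CPM in the fruits and 41.2 and 37.1 CPM in the buds (log2 fold change 1.18, edgeR adjusted p of 1). Another 4, which the filter on low counts left out, were high in fruit 1 alone, as Unigene32325_P106 with 20.3 and 0.485 CPM in the fruits and 0.81 and 0.597 CPM in the buds, and Unigene32542_P106 with 12.8 and 0.364 CPM in the fruits and 0.694 and 0.955 CPM in the buds. When fruit 2 was left out, edgeR called 4 higher and 0 lower among 22 of this list, against 2.29% and 6.14% of all unigenes tested. The 9 tested of 15 seed maturation regulators had a median of 0.05. Both fruits lay below both buds in 0 of them, against 13.6% of all tested unigenes. Their most abundant member (Unigene120415_P106), an ABI5-like factor of the abscisic acid response, had 33.3 and 29.7 CPM in the fruits and 30.0 and 31.9 CPM in the buds. An ABI3-like transcript (Unigene100549_P106, chosen after its values were seen), for a B3 factor that activates storage protein genes in Arabidopsis seeds, had 3.67 and 0.971 CPM in the fruits and 1.27 and 0.836 CPM in the buds. Several LEC14B entries matched this pattern by their letters only.

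**Figure D4:**
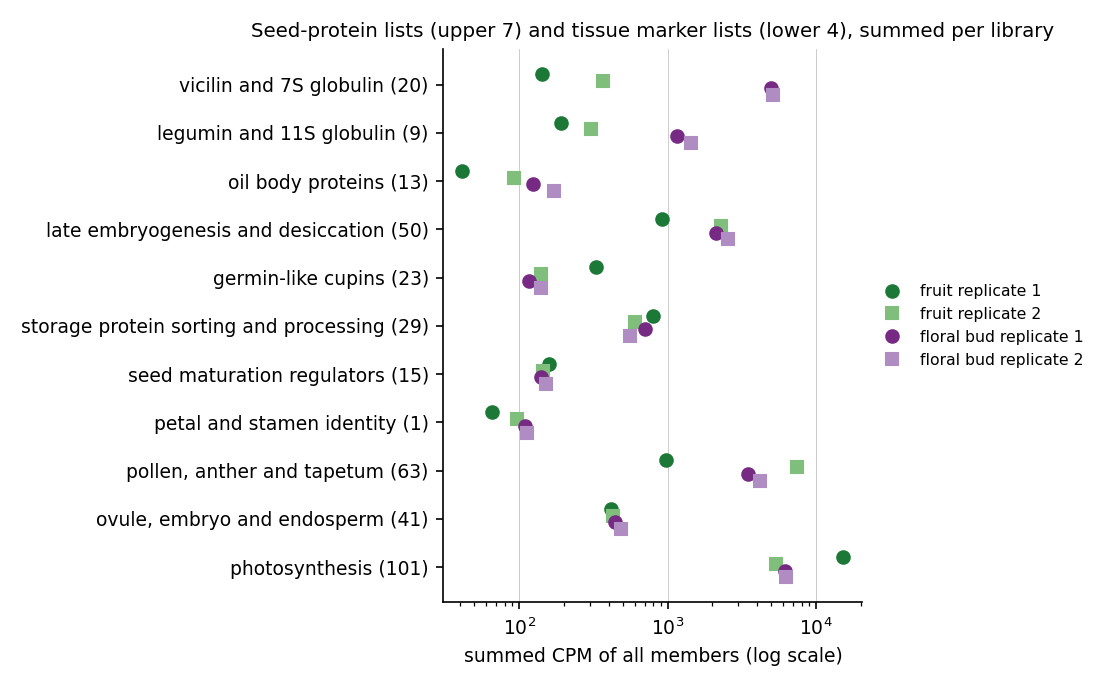
Summed CPM (log axis) of all members of 7 seed-protein lists and 4 tissue marker lists in each library, with the number of members in brackets; fruit libraries are green and floral bud libraries purple, circles replicates 1 and squares replicates 2. The vicilin and 7S globulin list sums to 142.4 and 369 CPM in the fruits and to 4933 and 5129 CPM in the buds, while the pollen list is highest in fruit replicate 2 at 7388 CPM.

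Of the markers of other tissues, the pollen and photosynthesis lists moved between the libraries as well, and the ovule, embryo and endosperm list moved little. The 63 pollen, anther and tapetum unigenes summed to 968 and 7388 CPM in fruits 1 and 2 and to 3493 and 4176 CPM in the buds, with 14 at 0 counts in fruit 1. Their most abundant member, a pollen-specific extensin-like transcript (Unigene53919_P106), had 1.0 and 1567 CPM in the fruits and 707 and 656 CPM in the buds. The pollen sum was thus below both buds in fruit 1, as the members were, and above both buds in fruit 2, where the members were below them. A C13-like transcript (Unigene53762_P106, chosen after its values were seen) gave 495 of the 968 CPM in fruit 1, against 336 and 449 CPM in the buds. The 50 tested pollen unigenes had a median log2 change of -2.93 within replicates 1 and 0.34 within replicates 2. The 101 photosynthesis unigenes summed to 15237 and 5399 CPM in the fruits and to 6150 and 6295 CPM in the buds, led by the Rubisco small subunit (Unigene247_P106). The 41 ovule, embryo and endosperm unigenes summed to 419 and 431 CPM in the fruits and 439.5 and 486 CPM in the buds, led by a somatic embryogenesis receptor kinase (Unigene118268_P106). They were taken by the words of their descriptions, many of them receptor kinase or EMB8-like entries. Whether they mark these tissues was not tested. The part of these tissues in the levels of the members was not tested.

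The unigenes most like each member in pattern were ranked by the distance between log2(CPM + 1) profiles over the 4 libraries, each centred on its own mean, among 47236 described unigenes. For Unigene53698_P106 the nearest was Unigene53454_P106 at 0.22, and for Unigene54910_P106 it was Unigene9264_P106 at 0.43. Of the 10 nearest, 5 were other unigenes of the vicilin-like set for either member, and 8 were shared between the lists of both. Outside that set, 6 unigenes were among the nearest of either member. Likeness over 4 libraries is a description, and the same libraries gave all the profiles.

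The nearest outside the set was a periaxin-like transcript (Unigene4242_P106), at 0.333 and 52.1 CPM in fruits 1 and 2 and at 384 and 305 CPM in the buds (distances 1.17 and 1.18). An uncharacterized transcript (Unigene4393_P106) had 0.555 and 107 CPM in the fruits and 434 and 839 CPM in the buds. Unigene28093_P106, described as late embryogenesis abundant protein 1-like, had 0.333 and 26.2 CPM in the fruits and 180 and 152 CPM in the buds. Protein LE25 (Unigene54856_P106), a late embryogenesis abundant protein of tomato, had 0.555 and 26.8 CPM in the fruits and 147 and 346 CPM in the buds. A periaxin-like transcript (Unigene4244_P106) came last among the 10 of the longer member and another (Unigene53108_P106) last among those of the shorter, at 0.111 and 11.4 CPM in the fruits and at 118 and 112 CPM in the buds. All 6 were lower in both fruits than in both buds and lower in fruit 1 than in fruit 2. Of all tested unigenes, 13.6% had both fruits below both buds. The 6 were picked for their likeness to the members, so this order follows from the choice and nothing is read from it. The edgeR fit gave an adjusted p of 1 for each.

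**Figure D5:**
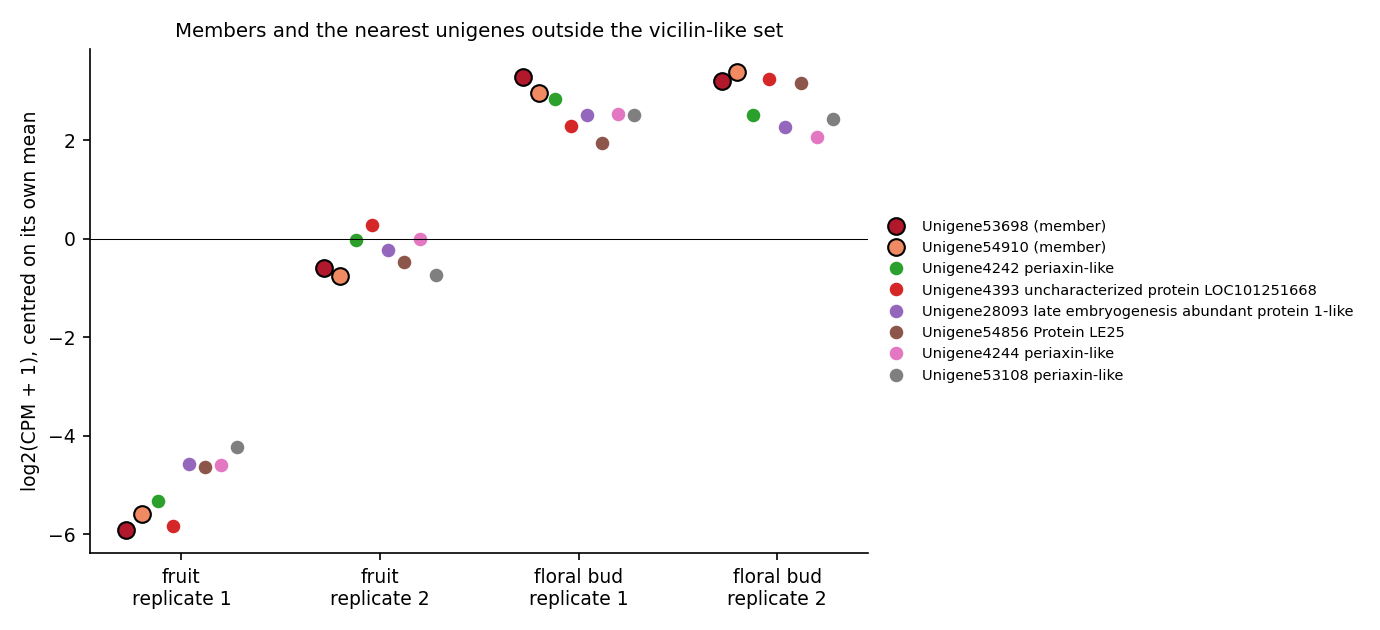
Log2(CPM + 1) of the 2 members, outlined in black, and of the 6 nearest unigenes outside the vicilin-like set in each library, each centred on its own mean over the 4 libraries; 1 point per unigene and library. All 8 lie lowest in fruit replicate 1 and highest in the floral buds, an order that follows from choosing the 6 by likeness. The members span the range from fruit replicate 1 to the buds more widely than 5 of the 6.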

How the data were processed

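The 4 quantified libraries were analysed. Per the file headers, the authors deposited counts of uniquely mapped reads per unigene, RPKM values made from those counts and the library total, and the percent of each unigene's length covered by reads. The assembler, aligner and read filters were not given in the sources used here. RPKM recomputed from count, length and total differed from the deposited values by at most 1.05e-08 of the value. A design text speaks of triplicates, but the labels give 2 quantified libraries per organ, and these were used. The mixed library was not analysed here.

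A unigene absent from a library's file was set to 0 counts. CPM used library totals without TMM factors. Counts were tested with edgeR 4.0.16 (R 4.3.3; filterByExpr, TMM, glmQLFit and glmQLFTest over the 4 libraries, 2 residual degrees of freedom) at a Benjamini-Hochberg adjusted p under 0.05 over 59858 unigenes; DESeq2 1.42.0 was an alternative. The procedure was run on simulated counts with 1 dispersion for all unigenes and no added difference between libraries of an organ. The real fruits stood apart from each other, so its performance on such libraries was not tested. A single value compared between 2 and 2 libraries cannot reach an exact two-sided permutation p below 0.333, and the spread of such small groups limits every comparison. Counting intervals are exact (95%), and floors are 3 counts.

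Descriptions came from the files of replicates 2 where they gave one, otherwise from those of replicates 1. Named were the members, vicilin-list unigenes with a mean of at least 1 CPM, the most abundant unigene of each other list, and the 10 described unigenes nearest in pattern to each member; others are marked where named. The members and lists were chosen with earlier results of these data known. Alternatives were other scalings, no filter, DESeq2, a block by replicate number and leaving out each library. Shared numbers were not taken as pairing, since the labels tie them to no shared plant or day.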

Additional observations from a re-analysis of the deposited data

How the results depend on the processing

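The direction of both members was the same in all alternatives run. They were chosen on this contrast, and no fruit overlapped a bud, so nothing is read from that. With each library left out in turn, log2 fold changes lay between -9.59 and -3.73 for Unigene53698_P106. For Unigene54910_P106 they lay between -9.80 and -3.86. The lowest came without fruit replicate 2 and the highest without fruit replicate 1. The replicate block gave -6.62 and -6.70, with 0 calls among all unigenes and in each list; numbers shared by the organs correlated in their deviations at r = 0.466, over 2 pairs only. DESeq2 called 30 unigenes higher and 128 lower, against 0 and 0 by edgeR. Leaving out 1 library gave 0 to 1546 higher and 0 to 4135 lower calls; those in the lists numbered 0 to 7 (vicilin), 0 to 5 (legumin), 0 to 1 (oil body), 0 to 13 (late embryogenesis), 0 to 2 (germin) and 0 to 4 (sorting and processing). Without fruit replicate 2 these lists had, in the same order, 12, 6, 7, 35, 13 and 22 unigenes tested. In that fit 2.29% of all tested unigenes were called higher and 6.14% lower. The lone fruit library is assumed there to vary like the buds, so nothing is read from the list counts. By RPKM in place of counts, Unigene53698_P106 held 53.5%, 51.9%, 54.4% and 45.6% of both members in fruits 1 and 2 and buds 1 and 2. By CPM in place of RPKM, Unigene54910_P106 ranked 2750 in fruit replicate 2 and 46 and 32 in the buds, and Unigene53698_P106 ranked 6 in bud replicate 2; CPM takes no account of length. Of the 10 nearest unigenes, Pearson's r kept 0 for either member, and a pseudocount of 0.1 kept 4 for Unigene53698_P106 and 6 for Unigene54910_P106, so the nearest unigenes depend on the measure. With the descriptions of replicates 1 first, the vicilin list had 13 unigenes in place of 20. The depth left 10 and 37 counts for the members in fruit replicate 1, where folds are least precise.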

Other observations

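Periaxin-like descriptions, named for an animal protein whose plant counterpart has no role given here, covered 10 unigenes with opposite patterns, looked at after their values were seen. In 5 of them, levels were lower in both fruits than in both buds, against 13.6% of all tested unigenes. Some of these were picked as nearest to the members in pattern, so nothing is read from the count. Unigene4243_P106, for example, was at 0.0 and 9.1 CPM in fruits 1 and 2 and at 139 and 76.5 CPM in the buds. Unigene27558_P106 had 0.333 and 6.92 CPM in the fruits and 124 and 61.0 CPM in the buds. The other 5 were highest in fruit replicate 1, led by Unigene143762_P106 at 21.8 and 2.31 CPM in the fruits and at 2.2 and 0.955 CPM in the buds. Some had few reads: Unigene117234_P106 had 11 counts in fruit replicate 1 and Unigene15038_P106 had 8. Each of these had at most 1 count in any other library. No test of this split was made.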
